A study of Mus musculus with 11 samples.

Results

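The tubulin tyrosine ligase-like enzymes were followed in whole mouse testis at postnatal day 21 (P21), with and without the transcription factor RFX2. The 10 genes Ttll1 to Ttll10 were taken by symbol from a table of 23074 genes, and all 10 had a row. RNA-Seq had been made from the decapsulated testes of 5 wild type and 6 Rfx2-/- mice, all on a mixed C57BL/6, 129/Sv and FVB/N background. The Rfx2-/- mice lacked exon 7, which encodes most of the DNA binding domain. The exon had been flanked by loxP sites and removed in the germ line by a ubiquitously active Cre, so every cell type of these testes carried the deletion, and the selection cassette stayed in this line. The mice were separate animals, numbered 1 to 5 (wild type) and 6 to 11 (Rfx2-/-). The libraries held between 26925157 and 29769483 counts in wild type and between 22232097 and 27116903 counts in Rfx2-/- mice, so depth was mostly lower in Rfx2-/- mice.

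These enzymes attach amino acids as side chains to the acidic tails of tubulin, which project from the microtubule surface. Most members add glutamate. TTLL3 and TTLL8 place the initial glycine, and TTLL10 extends the glycine chain. Among the glutamylases TTLL4 and TTLL5 start chains, TTLL6 lengthens them with a preference for alpha-tubulin, and TTLL7 acts on beta-tubulin. TTLL1 is the catalytic subunit of a polyglutamylase complex, and TTLL9 is a glutamylase known from the sperm flagellum. The modified microtubules are those of cilia, flagella, centrioles and, in spermatids, the manchette. RFX factors bind paired copies of a short motif, the X-box, in front of genes of the ciliary programme.

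At P21, Ttll6 was the member that differed most between the genotypes, at an 8.49-fold lower level in Rfx2-/- testes, and it was the single member past the threshold. Ttll3, a glycylase, was 4.28-fold lower in the same fit and Ttll1 1.65-fold lower, but neither passed. The starters Ttll4 and Ttll5, the beta-tubulin enzyme Ttll7, the glycylase Ttll8 and the flagellar Ttll9 differed from wild type by at most 1.51-fold with all mice in the fit, and none of them passed. Without wild type replicate 1, a library that stood apart, Ttll7 was at 2.82-fold and Ttll8 at 1.92-fold of wild type, again not called. The glycine elongase Ttll10 spread too widely among mice of 1 genotype for its difference to be placed.

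Windows before the transcription start are shown for Ttll6, for Ttll3 (its downstream window only) and for the members with an X-box pair, because RFX factors bind that motif. The sequences are RefSeq promoter windows on GRCm38.p6, where 9 of the 10 members had an entry and Ttll1 had none. Each run holds 150 bases, read 5′ to 3′ on the strand of the gene. It goes from 130 bases before the start to 20 after it, except for Ttll8. There it goes from 250 bases to 101 bases before the start, so that the pair is shown. Capitals mark an X-box pair (GTTNC, then 2 to 5 bases, then GNAAC) or the single motif GTTGCC, in either orientation (GGCAAC). The pair pattern reads the same on both strands, and a pair may contain the single motif.
Ttll6, chr11:96133656-96133805, + strand: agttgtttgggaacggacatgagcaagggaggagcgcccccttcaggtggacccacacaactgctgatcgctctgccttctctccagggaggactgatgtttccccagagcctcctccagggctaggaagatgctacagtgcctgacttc
Ttll3, downstream window, chr6:113392333-113392482, + strand: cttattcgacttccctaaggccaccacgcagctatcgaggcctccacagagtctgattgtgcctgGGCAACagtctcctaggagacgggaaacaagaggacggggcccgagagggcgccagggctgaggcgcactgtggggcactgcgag
Ttll8, chr15:88954519-88954668, - strand: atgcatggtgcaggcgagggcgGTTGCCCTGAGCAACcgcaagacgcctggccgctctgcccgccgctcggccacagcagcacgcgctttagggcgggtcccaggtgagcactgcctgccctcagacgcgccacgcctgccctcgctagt
Ttll9, chr2:152962355-152962504, + strand: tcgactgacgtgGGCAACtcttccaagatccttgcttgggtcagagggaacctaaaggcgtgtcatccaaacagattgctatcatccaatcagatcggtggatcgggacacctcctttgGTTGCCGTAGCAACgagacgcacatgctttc
Ttll10, chr4:156050798-156050947, - strand: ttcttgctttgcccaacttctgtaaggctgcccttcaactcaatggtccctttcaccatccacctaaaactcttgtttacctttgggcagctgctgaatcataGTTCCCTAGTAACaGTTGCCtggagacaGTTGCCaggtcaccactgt

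The pair was found in the 300-base windows (250 bases before the start, 50 after) of 3 members, Ttll8, Ttll9 and Ttll10, and in 2.69% of all 32851 windows. It began 228 bases before the start in Ttll8, 11 bases before it in Ttll9 and 27 bases before it in Ttll10. The Ttll10 window, chr4:156050768-156051067, lies inside the gene as annotated for the counts, whose upstream end is at 156059414. Its start is therefore an internal one. The single motif was in a window of 5 members, those 3 and Ttll3 and Ttll5, and in 12.5% of all windows. The Ttll3 match lay in the downstream of its 2 windows, 65 bases before the start, and the upstream window had none. In Ttll5 the match began 230 bases before the start, in a window (chr12:85824670-85824969) that also lies inside the annotated gene, which begins at 85824659. Ttll2, Ttll4, Ttll6 and Ttll7 had neither pattern, which says only that these letters are not in these windows.

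Levels are given as counts per 1000000 counts of the library (CPM), scaled by the trimmed mean of M-values (TMM). Genotypes were compared with the edgeR quasi-likelihood test over 15745 tested genes, and a gene was called where p, adjusted by Benjamini-Hochberg over those genes, was 0.01 or less. The test covered 9 members, since Ttll2 did not pass the filter on low counts. Of the 9 tested members, 1 was called lower and 0 higher, and 8 were not called. Their log2 fold changes had a median of -0.14, with 5 values below 0. Over all tested genes 1.94% were called lower and 0.73% higher (2.67% in all), with a median of -0.05 on the log2 scale. At an adjusted p of 0.05 or less, Ttll1, Ttll3 and Ttll6 counted as lower, 3 of 9 members beside 8.78% of all tested genes, and 0 members as higher beside 6.15%. In 2 members, Ttll6 and Ttll3, the highest Rfx2-/- value was under the lowest wild type value, as it was in 5.2% of all tested genes. No member had every Rfx2-/- mouse above every wild type mouse (6.5% of all tested genes). In whole testis, fewer cells of a type and less RNA per cell cannot be told apart.

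**Figure D1:**
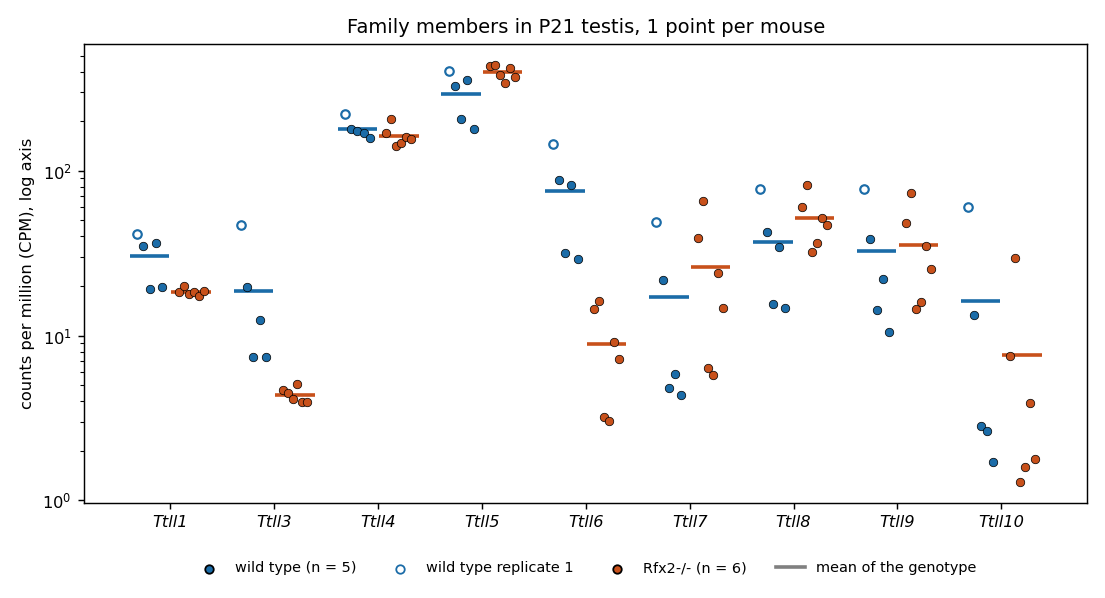
CPM (log axis) of the 9 tested members in each of 5 wild type mice (blue, replicate 1 open) and 6 Rfx2-/- mice (orange), with bars at the genotype means. Ttll6 and Ttll3 do not overlap between genotypes, and wild type replicate 1 is the highest wild type point in every member shown.

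Ttll6, the elongating glutamylase (ENSMUSG00000038756, chromosome 11, 96133786 to 96165451, 15 exons after merging its coding transcripts), was present at 145, 87.6, 31.8, 82.6 and 29.4 CPM in wild type mice 1 to 5. In Rfx2-/- mice 6 to 11 it stood at 14.4, 16.1, 3.19, 3.02, 9.08 and 7.23 CPM. The highest Rfx2-/- mouse lay below the lowest wild type mouse, although levels differed 4.93-fold among wild type mice and 5.34-fold among Rfx2-/- mice. Mean levels were 75.3 ± 47.6 CPM (SD, n = 5) and 8.85 ± 5.53 CPM (SD, n = 6). Ttll6 fell by 3.09 on the log2 scale (SE 0.56, edgeR adjusted p = 0.00783). The call lay close to the threshold: leaving out 1 mouse at a time gave log2 fold changes between -3.34 and -2.71, all of them negative, with edgeR adjusted p between 0.00665 and 0.0242. It was kept without wild type replicate 3 or 5 and lost in the other 9 fits.

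The 3 genes whose centred log2 CPM over the 11 mice was closest to that of Ttll6, among 14425 genes with a mean of at least 1 CPM, were Maats1, Nek10 and 4930444P10Rik. They were picked over mice of both genotypes, so fold changes near that of Ttll6 follow from the choice. Their values describe the picked genes and are no separate result. Maats1, an axonemal protein gene, lay at a root mean square difference of 0.237 log2 units. It differed by -3.08 on the log2 scale between genotypes (edgeR adjusted p = 0.0034). Nek10, a kinase gene of the NIMA-related family, followed at 0.310 log2 units with a log2 fold change of -2.77, which was not called (edgeR adjusted p = 0.0104). The uncharacterized 4930444P10Rik lay at 0.357 log2 units and differed by -3.73 on the log2 scale (edgeR adjusted p = 0.000879).

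Germ cell and Sertoli cell markers were present in all 11 mice, Ddx4 at 566 to 1018 CPM and Sox9 at 37.3 to 75.9 CPM. Wild type replicate 1 stood apart. The 6 markers of efferent duct and epididymis summed to 310.7 CPM in this mouse, against 7.61 to 78.3 CPM in the other wild type mice and 5.56 to 69.4 CPM in Rfx2-/- mice. Of these, Crisp1, a secreted epididymal protein gene, had 262 CPM in wild type replicate 1. It had 68.3 CPM in wild type replicate 4, 62.4 CPM in Rfx2-/- replicate 9 and at most 26.7 CPM in the other mice. Lcn8 and Lcn9, lipocalin genes of the epididymis, had 4.47 and 2.36 CPM in wild type replicate 1 and 0.942 and 0.370 CPM in wild type replicate 2. They had 0 counts in wild type replicates 4 and 5 and in 5 of the 6 Rfx2-/- mice. Without this mouse the difference of Ttll6 was -2.71 on the log2 scale (edgeR adjusted p = 0.0105), just outside the threshold, and the genotypes still did not overlap. The deletion itself could not be checked with these counts, because Rfx2 was counted over all its exons (191 to 472 CPM in wild type, 282 to 324 CPM in Rfx2-/- mice).

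Ttll3, the glycylase (ENSMUSG00000030276, chromosome 6, 113389260 to 113414587), had 46.6, 19.8, 7.44, 12.5 and 7.45 CPM in wild type mice 1 to 5. In Rfx2-/- mice 6 to 11 it had 4.67, 4.50, 4.12, 5.07, 3.96 and 3.96 CPM. No mice overlapped between genotypes. The Rfx2-/- mice were close to each other, 1.28-fold between highest and lowest, whereas wild type mice differed 6.27-fold. With a log2 fold change of -2.10 (SE 0.44) it missed the threshold in the fit of all mice (edgeR adjusted p = 0.0165). With wild type replicate 1 left out it was called, at -1.43 on the log2 scale (edgeR adjusted p = 0.00821). Of the merged exons of Ttll3, 283 bases (6.87%) also belong to Arpc4, an actin nucleation subunit gene on the same strand, where the authors' counting left reads out of both genes. Arpc4 itself had 49.7 to 64.0 CPM over the 11 mice.

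Ttll8, the other starting glycylase (ENSMUSG00000022388, chromosome 15, 88890633 to 88954418), had 77.5, 42.7, 15.5, 34.5 and 14.7 CPM in wild type mice 1 to 5. The Rfx2-/- mice 6 to 11 had 60.0, 81.8, 32.2, 36.4, 52.0 and 46.8 CPM. The ranges overlapped, and the log2 fold change of 0.48 had a 95% interval from -0.45 to 1.41 (edgeR adjusted p = 0.392). Within a mouse, and per kilobase of merged exon, Ttll3 was at 0.261 to 0.434 of the level of Ttll8 in wild type testes and at 0.0397 to 0.100 of it in Rfx2-/- testes. The level of Ttll3 alone did not overlap between genotypes, so this ratio is no separate result.

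Ttll10, the glycine elongase (ENSMUSG00000029074, chromosome 4, 156034840 to 156059414), had 60.3, 13.4, 2.84, 2.63 and 1.70 CPM in wild type mice 1 to 5. It had 7.54, 29.4, 1.29, 1.60, 3.91 and 1.78 CPM in Rfx2-/- mice 6 to 11. Levels differed 35.5-fold among wild type mice and 22.7-fold among Rfx2-/- mice, more than in any other tested member. The log2 fold change of -1.09 (SE 1.09, edgeR adjusted p = 0.453) turned to 0.57 (edgeR adjusted p = 0.638) without wild type replicate 1.

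Ttll1, the catalytic subunit gene (ENSMUSG00000022442, chromosome 15, 83483769 to 83510893), had 41.4, 34.9, 19.3, 36.4 and 19.7 CPM in wild type mice 1 to 5. The Rfx2-/- mice 6 to 11 had 18.4, 19.9, 17.8, 18.5, 17.5 and 18.6 CPM. The lowest 2 wild type mice, replicates 3 and 5, lay among the Rfx2-/- mice, and the other 3 lay well above all of them. Highest and lowest differed 2.15-fold in wild type and 1.14-fold in Rfx2-/- testes. A log2 fold change of -0.72 (SE 0.19) missed the threshold (edgeR adjusted p = 0.0359).

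Ttll9, the flagellar glutamylase (ENSMUSG00000074673, chromosome 2, 152962485 to 153008482), had 77.3, 38.5, 14.2, 22.1 and 10.5 CPM in wild type mice 1 to 5. It had 48.0, 73.2, 14.4, 16.0, 35.0 and 25.3 CPM in Rfx2-/- mice 6 to 11. The ranges overlapped almost fully. The log2 fold change was 0.12, with a 95% interval from -1.12 to 1.36 (edgeR adjusted p = 0.879), and its sign changed between fits. An antisense gene shares 129 bases of its exons, so without strand the reads of both cannot be told apart there.

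Ttll5, a starter of glutamate chains (ENSMUSG00000012609, chromosome 12, 85824659 to 86061893), had 403, 329, 206, 354 and 179 CPM in wild type mice 1 to 5. The Rfx2-/- mice 6 to 11 had 432, 440.3, 379.9, 344, 422 and 369 CPM. Wild type replicates 2, 3 and 5 lay below every Rfx2-/- mouse and replicates 1 and 4 among the Rfx2-/- mice, which differed 1.28-fold among themselves. The log2 fold change of 0.44 had a 95% interval from 0.00 to 0.87 (edgeR adjusted p = 0.119).

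Ttll4, the other starter (ENSMUSG00000033257, chromosome 1, 74661745 to 74703730), ranged from 158 to 222 CPM in wild type mice with a median of 175 CPM, and from 142 to 205 CPM in Rfx2-/- mice. Its log2 fold change was -0.14 (95% interval -0.38 to 0.10, edgeR adjusted p = 0.338), the narrowest interval of the 9 tested members. Ttll7, the beta-tubulin glutamylase (ENSMUSG00000036745, chromosome 3, 146852367 to 146984009), ranged from 4.37 to 48.8 CPM in wild type and from 5.74 to 65.6 CPM in Rfx2-/- mice. The log2 fold change of 0.60 came with an interval from -1.17 to 2.37 (edgeR adjusted p = 0.576). It was 1.49 without wild type replicate 1 (edgeR adjusted p = 0.134) and 0.07 without Rfx2-/- replicate 7 (edgeR adjusted p = 0.954). Ttll2, a predicted glutamylase (ENSMUSG00000079722, chromosome 17, 7350885 to 7352696), had 7, 1, 2, 0 and 1 counts in wild type mice 1 to 5 and 0, 2, 5, 2, 1 and 1 counts in Rfx2-/- mice 6 to 11. No fold was computed at this depth, where a count of 0 allows up to 3 counts.

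**Figure D2:**
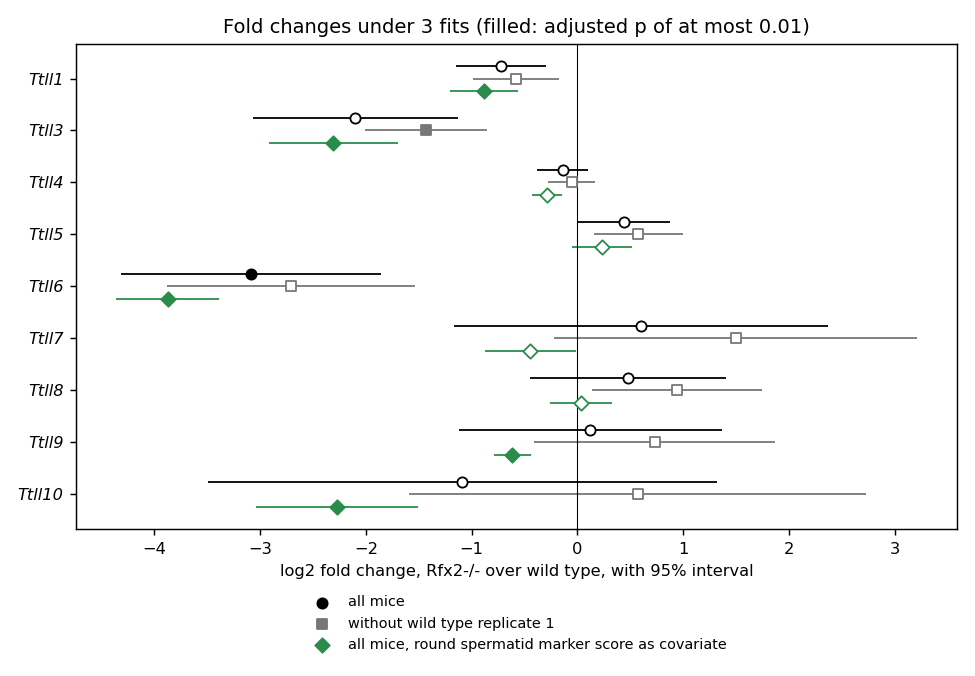
Log2 fold change (Rfx2-/- over wild type) with 95% interval for the 9 tested members in the fit of all mice (circles), without wild type replicate 1 (squares) and with the round spermatid marker score as covariate (diamonds), filled where the adjusted p was at most 0.01. Ttll6 and Ttll3 lie below 0 in all 3 fits, while Ttll7, Ttll9 and Ttll10 change side.

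Mice of both genotypes differed in their markers of round spermatids, the cells that appear once the initial wave of spermatogenesis has passed meiosis. A score was taken as the mean log2 CPM of 12 such markers. The score was 6.40, 5.06, 2.57, 3.40 and 1.65 in wild type mice 1 to 5 and 6.22, 6.95, 3.71, 3.76, 5.64 and 4.98 in Rfx2-/- mice 6 to 11. The 12 markers summed to between 487 and 2091 CPM in wild type and between 1588 and 3017 CPM in Rfx2-/- mice, and none was called. Genotype means of the score differed by 1.39, higher in Rfx2-/- mice (two-sided exact permutation p = 0.182, adjusted p = 0.245 over 9 marker lists). Scores of the other 8 lists gave adjusted p between 0.0779 (pachytene spermatocytes) and 0.74 (peritubular cells) in the same exact permutation test, whose smallest p is 0.00433. Over 9 lists, a list on its own could therefore not reach an adjusted p of 0.01. The pachytene score was 0.62 higher in Rfx2-/- mice (exact permutation p = 0.00866). The Sertoli cell score was 0.33 lower (exact permutation p = 0.0216, adjusted p = 0.0974). The log2 fold changes were below 0 for 8 of 8 Sertoli cell, 5 of 5 macrophage and 5 of 6 Leydig cell markers, with medians of -0.35, -0.48 and -0.54. So were 6 of 7 spermatogonial, 4 of 4 peritubular, 4 of 4 tested duct and epididymis and 4 of 6 elongating spermatid markers. Among pachytene and round spermatid markers 1 of 8 and 1 of 12 were below 0, and 8621 of all 15745 tested genes were. Of the Sertoli cell, macrophage and Leydig cell markers, 1 was called, the steroid dehydrogenase gene Hsd3b1 (-0.86, edgeR adjusted p = 0.00126).

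Wild type replicates 3 and 5 stood apart too. Their 8 pachytene spermatocyte markers summed to 3367 and 3290 CPM, against 6342 to 7099 CPM in the other wild type mice and 6421 to 8237 CPM in Rfx2-/- mice. Without both of them 3 members were called lower, beside 2.72% of all genes tested in that fit. Ttll6 was then at -3.56 (edgeR adjusted p = 0.00242), Ttll3 at -2.58 (edgeR adjusted p = 0.00118) and Ttll1 at -1.02 on the log2 scale (edgeR adjusted p = 2.63e-05). The mice left out also had the lowest wild type values of Ttll6, Ttll3 and Ttll1. Larger differences of these genes therefore follow from leaving them out and are no separate result. Nicn1, a subunit gene of the TTLL1 complex, was 2.30-fold higher (edgeR adjusted p = 1.08e-06).

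Within a genotype, several members ran in the order of this score. Ttll6, Ttll7, Ttll8 and Ttll9 had all 10 pairs of wild type mice in the order of the score. Among the 15 pairs of Rfx2-/- mice, Ttll4, Ttll8, Ttll9 and Ttll10 had all 15 in that order and Ttll6 and Ttll7 had 14. Ttll1 and Ttll3, in contrast, had 10 and 7 of 15 pairs of Rfx2-/- mice in that order, against 8 and 9 of 10 pairs of wild type mice. These are descriptions of mice that share library preparation, compared within a genotype, and they were not tested.

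Ttll6 did not overlap between genotypes, so it was lower in the Rfx2-/- mouse of any pair across genotypes, and the score adds nothing to this. Rfx2-/- replicate 7, with the highest score of all mice (6.95), had 16.1 CPM of Ttll6, whereas wild type replicate 5, with the lowest score (1.65), had 29.4 CPM. For Ttll8, Rfx2-/- replicate 7 had 81.8 CPM and wild type replicate 5 had 14.7 CPM. These mice were picked from the ends of the score, and the part of cell makeup in either gene was not tested.

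**Figure D3:**
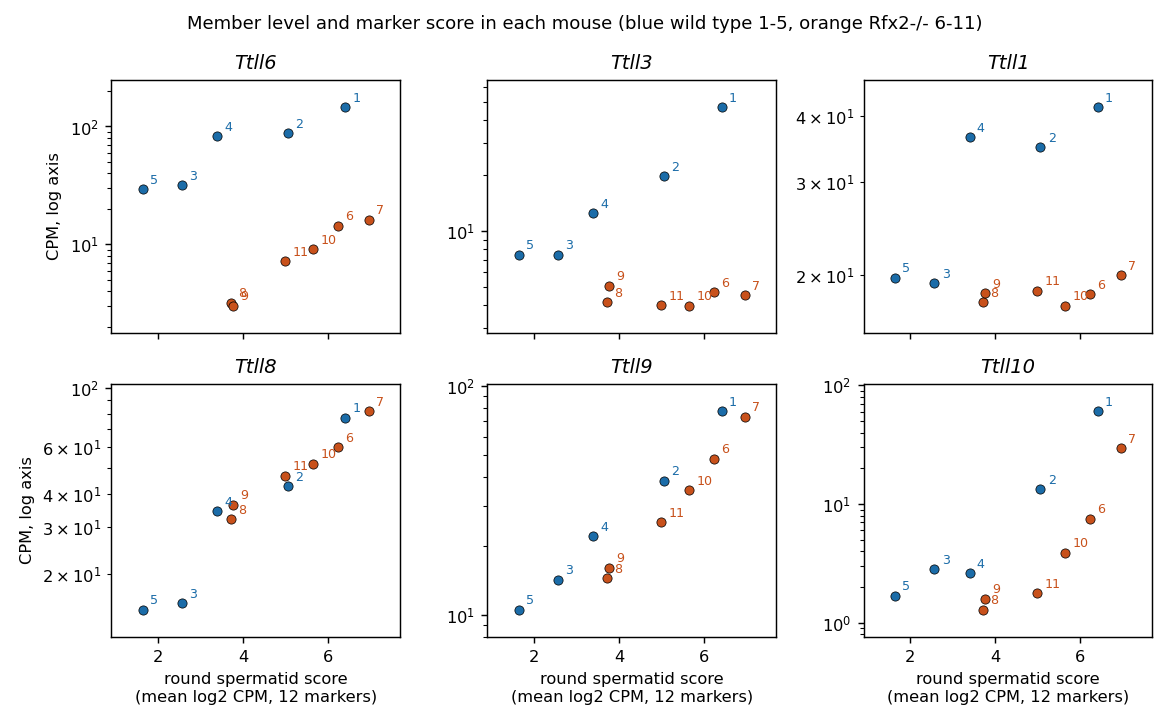
CPM (log axis) of 6 members against the round spermatid score (mean log2 CPM of 12 markers) in each mouse, numbered by replicate, wild type in blue and Rfx2-/- in orange. Ttll6 forms separate bands by genotype, Ttll8 a single band, and Ttll1 and Ttll3 stay between 17.5 and 19.9 CPM and between 3.96 and 5.07 CPM in Rfx2-/- mice at every score.

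With the score as a covariate in the edgeR fit, 5 members were called lower, beside 4.36% of all tested genes (higher: 0 members, 1.63% of all genes). Ttll6 stood at -3.87 on the log2 scale (SE 0.22, edgeR adjusted p = 3.73e-07), with a narrower error than in the fit without the score. Ttll3 was at -2.31 (edgeR adjusted p = 0.000188), Ttll10 at -2.27 (edgeR adjusted p = 0.00124), Ttll1 at -0.89 (edgeR adjusted p = 0.00205) and Ttll9 at -0.62 (edgeR adjusted p = 0.000323). The remaining glycylase, Ttll8, was at 0.04 with a 95% interval from -0.26 to 0.33 (edgeR adjusted p = 0.867). Leaving out wild type replicate 1 as well kept the calls of Ttll3 (-1.77), Ttll6 (-4.14) and Ttll9 (-0.63) and lost those of Ttll1 and Ttll10 (edgeR adjusted p = 0.0278 and 0.0346). The fit gave both genotypes the same slope on the score, whereas Ttll1 and Ttll3 changed little with it in Rfx2-/- mice. Wild type replicates 3, 4 and 5 had scores (2.57, 3.40 and 1.65) below the lowest Rfx2-/- score of 3.71. The values are those of this model for mice set at an equal score, and the score is itself measured after the deletion.

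Per kilobase of merged exon, the order of the members in wild type testes was Ttll5, Ttll6, Ttll4, Ttll9, Ttll8, Ttll1, Ttll10, Ttll3, Ttll7 and Ttll2. Mean levels ran from 33.8 ± 11.1 CPM per kilobase for Ttll5 (SD, n = 5) to 2.12 ± 2.36 for Ttll7 and 0.0449 ± 0.0601 for Ttll2. Ttll5 lay above Ttll6 in 5 of 5 mice, as did Ttll3 above Ttll7. The neighbours Ttll6 and Ttll4, Ttll4 and Ttll9, Ttll8 and Ttll1, and Ttll10 and Ttll3 kept the order of their means in 3, 3, 2 and 1 of 5 mice and were not set apart by it. In wild type testes Ttll6 was at 19.5 ± 12.3 CPM per kilobase, close to the starter Ttll4 at 18.0 ± 2.42.

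In Rfx2-/- testes Ttll5 was again the highest, at 45.7 ± 4.49 CPM per kilobase (SD, n = 6), followed by Ttll8, Ttll9 and Ttll4 at 17.4 ± 6.05, 17.3 ± 10.96 and 16.4 ± 2.26, which did not keep 1 order over the mice. Ttll6 was at 2.29 ± 1.43 CPM per kilobase, above Ttll3 at 1.06 ± 0.108 in 4 of 6 mice. Its mean lay under that of Ttll10 (2.73 ± 3.93), but Ttll10 was above Ttll6 in 1 of 6 mice, Rfx2-/- replicate 7, so these neighbours were not set apart. Its share of the summed level of the 10 members was 11.5% to 18.0% in wild type mice and 0.933% to 2.89% in Rfx2-/- mice. Shares of a sum move together, so the share of Ttll5, 20.7% to 34.3% in wild type and 30.6% to 51.3% in Rfx2-/- mice, is not independent of the share of Ttll6.

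**Figure D4:**
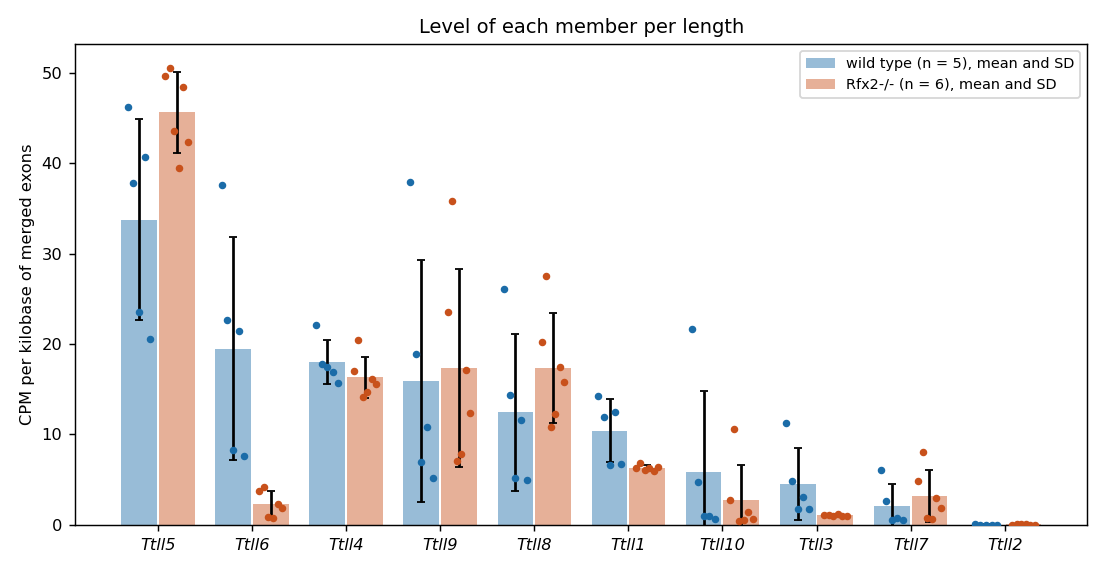
CPM per kilobase of merged exons for the 10 members in wild type (blue, n = 5) and Rfx2-/- testes (orange, n = 6), with bars at the mean, error bars of 1 SD and a point per mouse, ordered by the wild type mean. The mean of Ttll6 is 19.5 in wild type and 2.29 in Rfx2-/- testes, where Ttll10 exceeds it through replicate 7, and Ttll5 is highest in both.

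The table also held 4 relatives outside this range: Ttl, which restores the terminal tyrosine of alpha-tubulin, and Ttll11, Ttll12 and Ttll13. None of the 4 was called, with log2 fold changes between -0.39 and 0.33. Ttll11 and Ttll13 encode glutamylases of the same elongating group as Ttll6. Per kilobase, Ttll6 was at 3.53 to 5.31 times the level of Ttll11 in wild type mice and at 0.185 to 0.608 times in Rfx2-/- mice. Against Ttll13 it was at 0.238 to 0.366 times in wild type and at 0.0136 to 0.0467 times in Rfx2-/- mice. Neither ratio overlapped between genotypes, but the level of Ttll6 alone did not overlap either, so the ratios are no separate result.

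The surrounding machinery was described from 45 genes in 6 lists, 4 of them these relatives, of which 42 genes were tested, 0 called lower and 1 higher. In edgeR at an unadjusted p of at most 0.01 these counts were 4 lower and 6 higher, where 10.2% and 7.49% of all tested genes passed. The called gene was Nicn1, which encodes a subunit of the TTLL1 polyglutamylase complex. Its level was 43.8 ± 12.1 CPM in wild type testes (SD, n = 5) and rose 2.73-fold to 119.6 ± 5.16 CPM in Rfx2-/- testes (SD, n = 6), a log2 fold change of 1.45 (SE 0.16, edgeR adjusted p = 0.0004), with every Rfx2-/- mouse above every wild type mouse. Of the other subunits, Lrrc49 differed by 0.60, Tpgs2 by 0.43 and Tpgs1 by -0.15 on the log2 scale, and none of them was called, nor was Cep41, which is needed for glutamylation of cilia, at 0.40. The complex had its catalytic gene Ttll1 at a log2 fold change of -0.72 beside Nicn1 at 1.45.

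The carboxypeptidases and the vasohibins, which remove glutamates or the terminal tyrosine, had 8 tested genes of 9, with 0 called and a median log2 fold change of 0.50. Agbl4, which shortens glutamate chains, had the highest value, 1.67 (SE 0.34, edgeR adjusted p = 0.0147), and its genotypes did not overlap. It was chosen for mention after its values were seen. The 14 tested tubulin genes of 16 had a median of -0.01, the 3 genes of tubulin acetylation a median of -0.16 and the 8 genes of microtubule severing a median of 0.19, with 0 called in each list. These lists stand beside -0.05 for all tested genes.

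**Figure D5:**
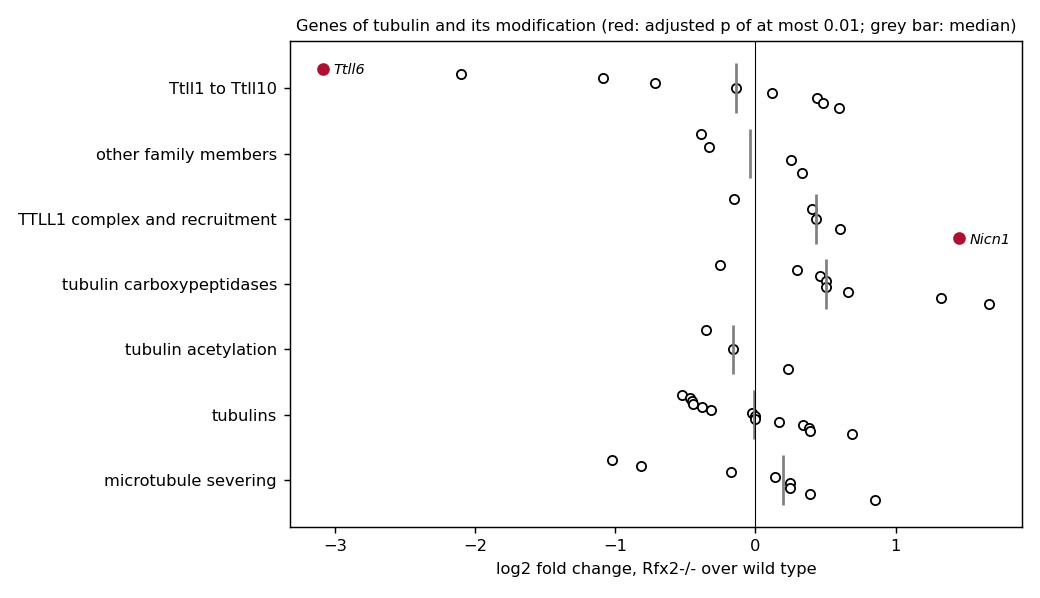
Log2 fold change (Rfx2-/- over wild type) of each tested gene in the family and in 6 lists of related genes, with grey bars at list medians and red points at an adjusted p of at most 0.01. Ttll6 at -3.09 and Nicn1 at 1.45 are the red points.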

How the data were processed

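Total RNA of decapsulated, flash-frozen testes had been made into TruSeq libraries. The authors' processing notes name CASAVA 1.8.2, STAR 2.4, featureCounts 1.4.6 and GRCm38. Whether counting used strand is not given in the sources used here, and the authors dropped reads overlapping exons of different genes. The deposited values were raw counts per gene, and all 253814 were whole numbers. Symbols, coordinates and exon lengths came from GENCODE vM21, which held 22293 of the 23074 genes. Counts were filtered (filterByExpr), scaled by TMM and tested with edgeR 4.0.16 (R 4.3.3). Alternatives used DESeq2 1.42.0 and limma 3.58.1. Exact permutation tests used SciPy 1.17.1. The fits were run on simulated counts with 200 changed genes and the same spread for every gene, which does not measure their error rates in these data. The naming rule took all 10 members, other tubulin genes where called and, for a called member, its 3 nearest genes. Related genes named without a call, and Hsd3b1, were chosen after their values were seen. Members and lists were chosen with earlier results of these data known. The labels say the mice were independent, so p-values measure spread between mice, and a shared litter was not taken into account. Counts carry no molecular identifiers.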

Additional observations from a re-analysis of the deposited data

Results flagged for a closer look

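In 3 of 38 sets of mice (10 members and 9 marker scores in each genotype), 1 mouse lay far from the others by Dixon's ratio. Chance alone marks about 1 in 20 sets by this rule where values are normally distributed. Members were taken as CPM and scores as mean log2 CPM, and a flag on CPM can depend on that scale. Ttll10 was at 60.3 CPM in wild type replicate 1, against 13.4 CPM in the next wild type mouse. It was at 29.4 CPM in Rfx2-/- replicate 7, against 7.54 CPM in the next Rfx2-/- mouse. These are the mice with the highest round spermatid scores of their genotypes, and the part of the score in Ttll10 was not tested. Ttll2 was at 0.247 CPM in wild type replicate 1, which is 7 counts.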

How the results depend on the processing

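The call of Ttll6 and the number of called members depended on the settings. Members called lower numbered 3 (Ttll1, Ttll3 and Ttll6) with total counts as library sizes (2.76% of all genes lower), the DESeq2 Wald test (5.74%), limma voom (4.33%), an adjusted p up to 0.05 (8.78%), an unadjusted p up to 0.01 (10.2%) and without wild type replicates 3 and 5 (2.72%). They numbered 5 with the round spermatid score as covariate (4.36%), 3 when wild type replicate 1 was also left out (2.06%), and 0 when wild type replicate 1 and Rfx2-/- replicate 7 were both left out (1.4%), and the alternatives that leave out a pair of mice, or a mouse beside the score, were chosen after seeing the data. Leaving out 1 mouse at a time gave 0 to 1 members lower. No setting called a member higher. DESeq2 size factors, no filter and a mean of at least 50 counts called Ttll6 alone.

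Related tubulin genes numbered 1 lower and 2 higher of 42 with total counts (all genes: 2.76% and 0.616%), 3 and 6 with DESeq2 (5.74% and 7.16%), 1 and 3 with limma voom (4.33% and 2.33%), 4 and 6 at an adjusted p up to 0.05 (8.78% and 6.15%) and also at an unadjusted p up to 0.01 (10.2% and 7.49%), 1 and 2 with the covariate (4.36% and 1.63%), and 2 and 2 of 43 without wild type replicates 3 and 5 (2.72% and 1.06%). With the covariate and without wild type replicate 1 they numbered 1 and 1 (2.06% and 0.456%). With 1 mouse left out they ran from 0 to 2 lower and from 1 to 2 higher, the larger counts without wild type replicate 1.

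With total counts the log2 fold changes of all genes had a median of -0.22 in place of -0.05. The sign turned for Ttll9 with total counts (-0.00038), limma voom (-0.092), the covariate (-0.62; -0.63 without wild type replicate 1) and without wild type replicates 3 and 5 (-0.37) or with 1 mouse left out (-0.23 to 0.73, negative without wild type replicate 3 or 5 or Rfx2-/- replicate 7). It turned for Ttll10 without wild type replicate 1 (0.57, lowest value with 1 mouse left out -2.32) and for Ttll7 with the covariate (-0.45; -0.54 without wild type replicate 1). The cause was not tested. With the longest coding transcript as length, 6 members kept their wild type rank, and 4 to 10 did with 1 wild type mouse left out (4 without replicate 1), a check added after seeing the data. No paired analysis was possible because the labels used here give no litters or pairs. The authors state that littermates of the same age were used where possible.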
